A study of Mus musculus with 4 samples.

Results

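The genes described here are effectors and target genes of canonical Wnt signalling, followed in murine embryonic stem cells (CM7/1) that were made to overexpress Hey1 or Hey2. Hey1 and Hey2 are repressor proteins of the basic helix-loop-helix class whose genes are switched on by Notch signalling. RNA of 4 groups was measured on Affymetrix arrays, 1 array for each: the Hey1 line induced with 1000 ng/ml doxycycline for 48 h, the Hey1 line uninduced, the Hey2 line induced in the same way, and the Hey2 line uninduced. The uninduced groups are cells of the same 2 lines without doxycycline, and the labels do not say whether a line is a single clone. Every induced array had doxycycline, so an effect of the drug and an effect of the Hey factor cannot be told apart. Nothing was replicated, per the series' own design note. A difference between 2 arrays therefore has no replicate check here and no p-value accompanies it. Precision is limited by how few arrays there are. In what follows, "for Hey1" and "for Hey2" mean the induced minus the uninduced array of that line, in log2 units.

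The members were the probe sets whose single gene symbol in the platform annotation is Axin2, Lef1, Tcf7, Tcf7l1, Tcf7l2, Sp5, Nkd1, Ctnnb1, Dkk1 or Lgr5. This gave 22 of the 45101 probe sets, which stand for 9 of the 10 listed genes. Tcf7 had no probe set with that single symbol in the annotation used here and is not analysed here. Values are log2 summaries per probe set, and a level was taken as high enough to compare if it reached 6.05, the median of all values. Of the 22 probe sets, 11 reached this level in at least 1 array. A gene was represented by its brightest probe set on average, and 7 members could be compared in this way. Dkk1 and Lgr5 stayed below the median level in all 4 arrays, and 4 genes (Axin2, Lef1, Tcf7l2 and Nkd1) had both probe sets that reached it and probe sets that did not. Levels of different probe sets are not compared with each other, since probes differ in how strongly they bind.

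Canonical Wnt signalling works by stabilising beta-catenin, the product of Ctnnb1. Without a Wnt signal, a destruction complex that contains Axin proteins marks beta-catenin for degradation. With a signal, beta-catenin enters the nucleus and binds the transcription factors of the TCF/LEF family, which are encoded by Tcf7, Tcf7l1, Tcf7l2 and Lef1. In mouse embryonic stem cells Tcf7l1 acts mainly as a repressor and lowers the activity of pluripotency genes, and beta-catenin relieves this repression. Axin2, Sp5, Nkd1, Dkk1 and Lgr5 are described targets of the pathway, and most of them feed back on it.

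The probe sets of Hey1 and Hey2 did not show the induction. The Hey1 probe set read 6.51 in the induced Hey1 line, against 6.73 in the uninduced Hey1 line. The Hey2 probe set read 4.34 in the induced Hey2 line, against 4.25 in the uninduced Hey2 line, all below the median level. Arrays are therefore named by their labels, and induced means labelled as induced. The cell type fits its label: all 10 stem cell markers examined, among them Pou5f1, Sox2, Nanog and Zfp42, read between 10.9 and 15.0 in every array. Of 8 fibroblast markers, 2 reached the median level in any array and 0 in all 4. Of these 2, Thy1 read 7.80 in induced and 7.13 in uninduced cells of the Hey1 line, and 5.73 and 5.51 in the Hey2 line. The other, Col1a2, lay between 5.89 and 6.27 in the 4 arrays. The spread of the differences was measured by the scaled median absolute deviation over the 12098 genes compared. It was 0.16 for Hey1, 0.22 for Hey2 and 0.29 between the uninduced arrays. It is scaled up to the width of a standard deviation, so most genes lie inside it. Tfrc control probe sets at the 3' and 5' ends of the transcript, whose gap is a sign of RNA quality, stood apart by 0.84 in induced and 0.95 in uninduced cells of the Hey1 line. The gap was 0.96 in induced and 0.67 in uninduced cells of the Hey2 line. For Pcx it was 1.43 in induced and 1.38 in uninduced cells of the Hey1 line, and 1.56 and 1.33 in the Hey2 line. For Actb it was 0.51 and 0.48, and 0.42 and 0.39. Gapdh, too, had a slightly larger gap in the induced array of each line, unlike Tfrc in the Hey1 line. At each of these controls the gap was smallest in the uninduced Hey2 array. The part of RNA quality in the results was not tested.

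Tcf7l1 was the member that differed most between induced and uninduced cells, and it was lower in the induced array of both lines. Probe set 1436207_at read 9.05 in the induced Hey1 line, against 9.51 in the uninduced Hey1 line. The same probe set read 9.15 in the induced Hey2 line, against 10.27 in the uninduced Hey2 line. The differences were -0.46 for Hey1 and -1.13 for Hey2, 1.37-fold and 2.18-fold lower. The other probe set, 1450117_at, read 8.51 in induced against 9.25 in uninduced cells of the Hey1 line, differing by -0.74. In the Hey2 line it read 8.86 in induced against 10.28 in uninduced cells, a difference of -1.41. Both probe sets thus gave lower values in both induced arrays, and the uninduced Hey2 array had the highest value of the 4 at each of them. In such bulk RNA, fewer cells that express a gene and less RNA per cell cannot be told apart.

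These differences lay at the edge of the distribution of all genes. Among the 12098 genes compared, Tcf7l1 was the 16th lowest in the Hey2 line and the 160th lowest in the Hey1 line. In the Hey2 line, 2 of the 11 member probe sets at the median level or above were at least 2-fold lower, and both were those of Tcf7l1. The same was true of 0.194% of the 21097 single-symbol probe sets at that level. Counted by genes, 1 of the 7 members was lower by 2-fold or more for Hey2, where 0.24% of all genes were, and 0 were higher, where 0.686% of genes and 0.82% of probe sets were. For Hey1, 0 members were past 2-fold lower (0.0331% of genes and 0.0427% of probe sets) or higher (0.438% and 0.341%). At 1.5-fold, 1 member probe set was lower for Hey1 (1450117_at), where 0.64% of the probe sets were, and 0 were higher, where 1.59% were. For Hey2, 2 were lower by this much, where 2.18% were. Tcf7l1 1450117_at was past 1.5-fold lower in both lines, as were 0.199% of probe sets, whereas 1436207_at, which represents the gene, was not. Of all genes, 0.223% were.

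The size of the Tcf7l1 difference depended on which uninduced array served as the reference. Before induction Tcf7l1 was higher in the Hey2 line than in the Hey1 line by 0.76 at 1436207_at and by 1.02 at 1450117_at. After induction the Hey2 line exceeded the Hey1 line by 0.09 and 0.35. Set against the uninduced Hey1 array, the induced Hey2 array was lower by smaller amounts, with differences of -0.37 and -0.39. Set against the uninduced Hey2 array, the induced Hey1 array differed by -1.22 and -1.77. All of these pairings put the induced array below the uninduced one, and the 2-fold call in the Hey2 line was lost with the uninduced Hey1 array as its reference.

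**Figure D1:**
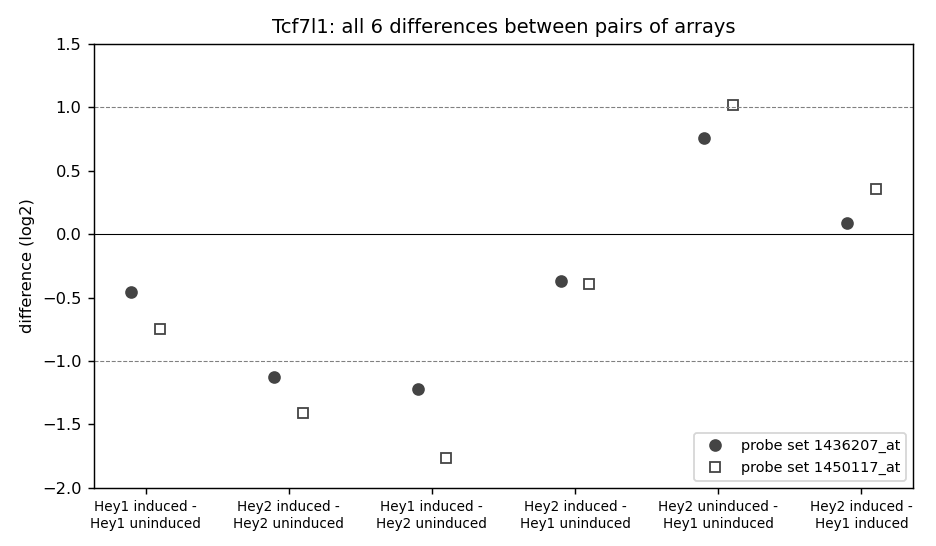
Differences of Tcf7l1 between the arrays, in pairs, on the log2 scale, for its 2 probe sets. Dashed lines mark 2-fold. Each difference of an induced minus an uninduced array lies below 0, from -0.37 to -1.77, and the uninduced Hey2 array lies above the uninduced Hey1 array by 0.76 and 1.02.

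Tcf7l2 and Lef1, the other TCF/LEF genes with probe sets, were at no probe set lower in both induced arrays, as Tcf7l1 was. Lef1 was lower in the induced Hey2 array alone. Tcf7l2, which encodes a factor that can activate targets with beta-catenin, was higher in both induced arrays at the 2 probe sets that reached the median level. Probe set 1429428_at read 6.78 in induced against 6.51 in uninduced cells of the Hey1 line, differing by 0.28. It read 7.03 in induced against 6.81 in uninduced cells of the Hey2 line, a difference of 0.22. Probe set 1429427_s_at reached the median level in the 2 induced arrays and not in the uninduced ones. The level filter thus kept it only through the arrays where it was high, so its higher value there is no separate support. It read 6.19 in induced against 5.67 in uninduced cells of the Hey1 line, differing by 0.51. It read 6.27 in induced against 5.53 in uninduced cells of the Hey2 line, a difference of 0.74, and it was the 1 member probe set of 11 at least 1.5-fold higher there, where 3.78% of all probe sets were. The 2 dimmer probe sets differed by 0.01 and 0.29 in the Hey1 line and by -0.13 and -0.06 in the Hey2 line, so the probe sets of Tcf7l2 disagreed in the Hey2 line.

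Lef1, whose product activates Wnt targets and is itself raised by the pathway in many tissues, was near or below the median level. Probe set 1454734_at read 6.01 in induced against 5.96 in uninduced cells of the Hey1 line. It read 5.75 in induced against 6.18 in uninduced cells of the Hey2 line, which was the only array in which it reached the median level. The differences were 0.05 and -0.43, the second larger than the scaled spread of 0.22 in that line. The level filter thus kept this probe set through the array where it was highest. The other probe set, 1421299_a_at, lay between 3.77 and 4.27 in the 4 arrays and differed by 0.18 in the Hey1 line and by -0.22 in the Hey2 line.

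Ctnnb1, the gene for beta-catenin, was far above the median level in every array and was slightly lower in both induced arrays at each of its 3 probe sets. Probe set 1420811_a_at read 13.40 in induced against 13.49 in uninduced cells of the Hey1 line. It read 13.53 in induced against 13.63 in uninduced cells of the Hey2 line. The differences were -0.09 and -0.10, inside the scaled spread of all genes in each line. Probe set 1450008_a_at differed by -0.04 and -0.27, and 1430533_a_at by -0.21 and -0.36. All 3 probe sets were lower in both lines, and the differences at 1430533_a_at exceeded the scaled spread in both. The protein, on which the pathway acts, was not measured.

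Among the described targets, Axin2 and Sp5 were slightly higher in the induced arrays. Axin2 encodes a scaffold of the destruction complex and is widely used as a readout of the pathway. Its probe set 1436845_at read 8.03 in induced against 7.94 in uninduced cells of the Hey1 line. It read 8.01 in induced against 7.62 in uninduced cells of the Hey2 line. The differences were 0.09 and 0.39. The induced arrays were nearly level and the uninduced Hey2 array was the lowest of the 4. Against the uninduced Hey1 array the Hey2 difference of Axin2 was 0.08. Its other probe set, 1421341_at, lay between 3.79 and 4.42, below the median level, and differed in the opposite direction by -0.23 and -0.20.

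Sp5 encodes a zinc finger transcription factor that is induced by Wnt signalling in embryonic stem cells and embryos. Its single probe set read 6.79 in induced against 6.64 in uninduced cells of the Hey1 line, differing by 0.15. It read 6.96 in induced against 6.69 in uninduced cells of the Hey2 line, a difference of 0.28. Both induced arrays were above both uninduced arrays. The Hey1 difference lay just inside the scaled spread of 0.16 and the Hey2 difference exceeded that of 0.22. Of the 12098 genes compared, 2082 were as high or higher for Hey1 and 1458 for Hey2, Sp5 included.

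Nkd1, which encodes an antagonist that binds Dishevelled, differed in opposite directions in the lines at 3 of its 4 probe sets. Probe set 1429507_at, the only one that reached the median level, read 6.70 in induced against 6.55 in uninduced cells of the Hey1 line, differing by 0.15. It read 6.74 in induced against 7.04 in uninduced cells of the Hey2 line, a difference of -0.30. Before induction the Hey2 line was higher by 0.49, and after induction by 0.04. Against the uninduced Hey1 array the Hey2 difference was 0.20, so its sign depended on the reference.

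Dkk1, a secreted antagonist that binds the Wnt coreceptors, and Lgr5, a receptor for R-spondins, were below the median level throughout, so the sizes of their differences are uncertain. Dkk1 probe set 1420360_at read 4.83 in induced against 4.66 in uninduced cells of the Hey1 line. It read 4.71 in induced against 5.12 in uninduced cells of the Hey2 line. The other Dkk1 probe set lay between 3.03 and 3.15. Lgr5 probe set 1444519_at read 4.92 in induced against 4.63 in uninduced cells of the Hey1 line. It read 4.73 in induced against 4.37 in uninduced cells of the Hey2 line. The other Lgr5 probe set lay between 4.22 and 4.38.

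**Figure D2:**
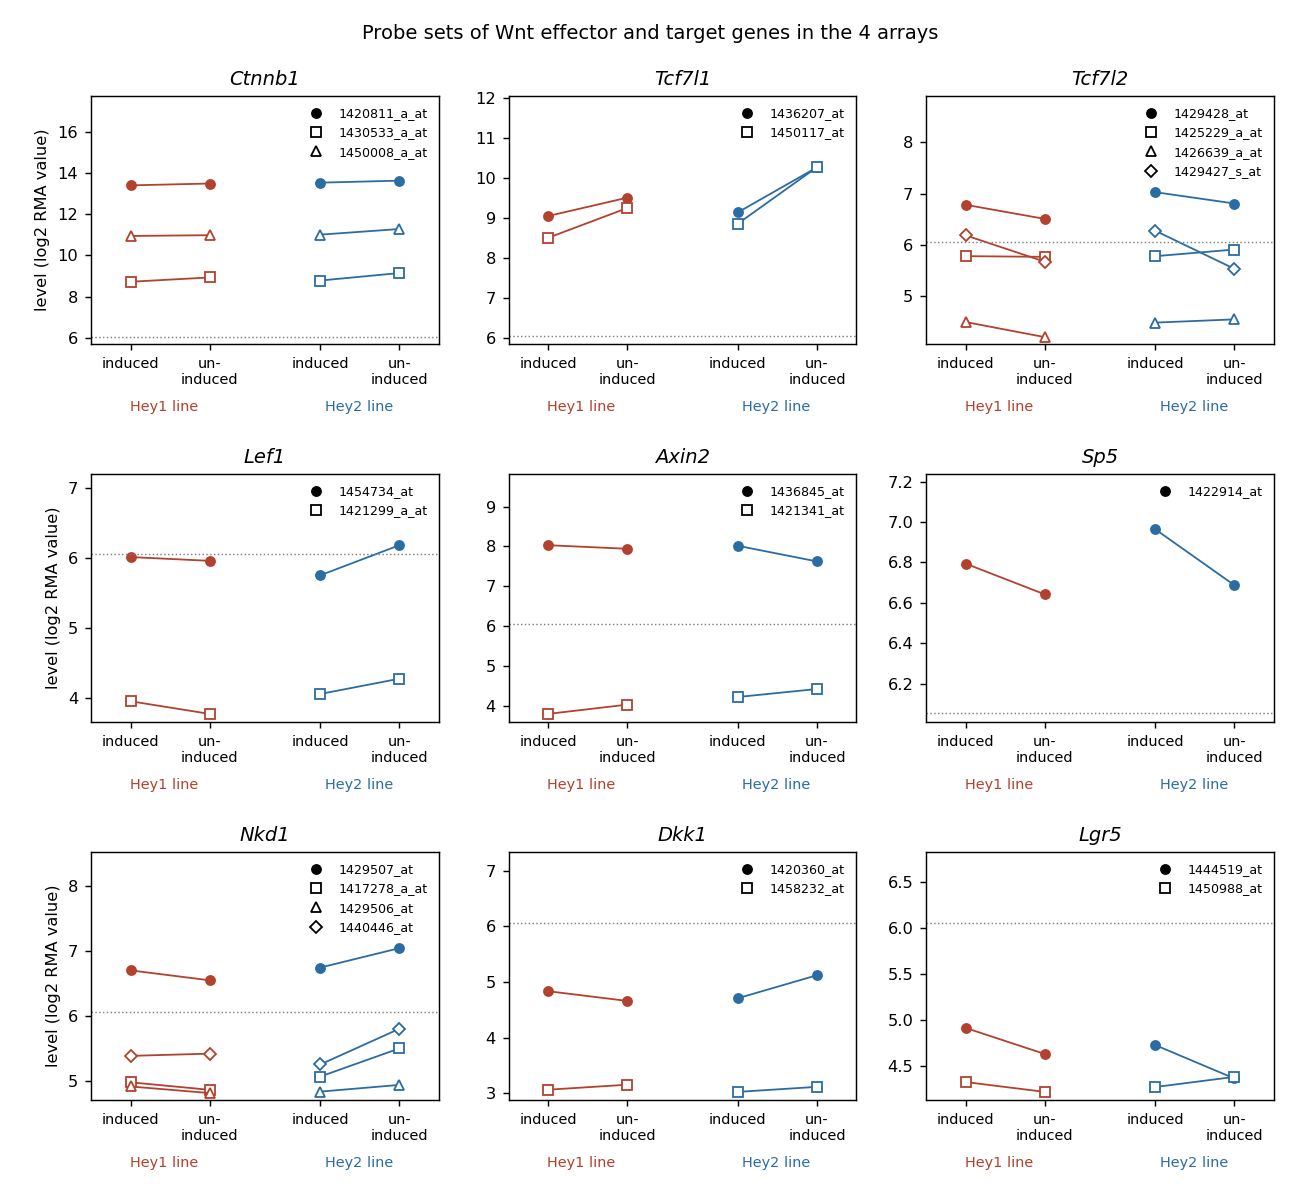
Level of each member probe set in the 4 arrays, as log2 RMA values, with the Hey1 line in red and the Hey2 line in blue. Filled symbols mark the probe set used for the gene, lines join the induced and the uninduced array of a line, and the dotted line is the median of all values, 6.05; the vertical scale differs between genes. Tcf7l1 lies lower in both induced arrays at both probe sets, and Dkk1 and Lgr5 lie below the dotted line in every array.

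As a group, the members did not move in a common direction. Of the 22 probe sets, 5 were higher and 8 lower in both induced arrays, and 9 were higher in the Hey1 line and lower in the Hey2 line. The 22 include probe sets below the median level, and no share over all probe sets of any level was computed to set beside them. Of the 11 at the median level or above, 4 were higher in both, 5 lower in both and 2 higher for Hey1 and lower for Hey2. Over all probe sets at that level the shares were 28.1%, 33.8% and 18.8%, and those of the 11 were 36.4%, 45.5% and 18.2%. The median difference of the 11 probe sets at the median level or above was 0.05 for Hey1 and -0.27 for Hey2. Over all probe sets at that level it was -0.01 in each line. The 5 lower in both were all probe sets of Ctnnb1 and Tcf7l1, so these genes were counted more than once. Counted by genes, 3 of the 7 compared members were higher in both lines (42.9%, against 28.1% of all genes). Lower in both were 2 of the 7 (28.6%, against 35.5%). The medians of the 7 genes were 0.09 for Hey1 and -0.10 for Hey2, against -0.01 and -0.02 over all genes. The member probe sets ranged from -0.74 to 0.51 in the Hey1 line and from -1.41 to 0.74 in the Hey2 line, with a Tcf7l1 probe set at the low end and a Tcf7l2 probe set at the high end of both ranges.

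**Figure D3:**
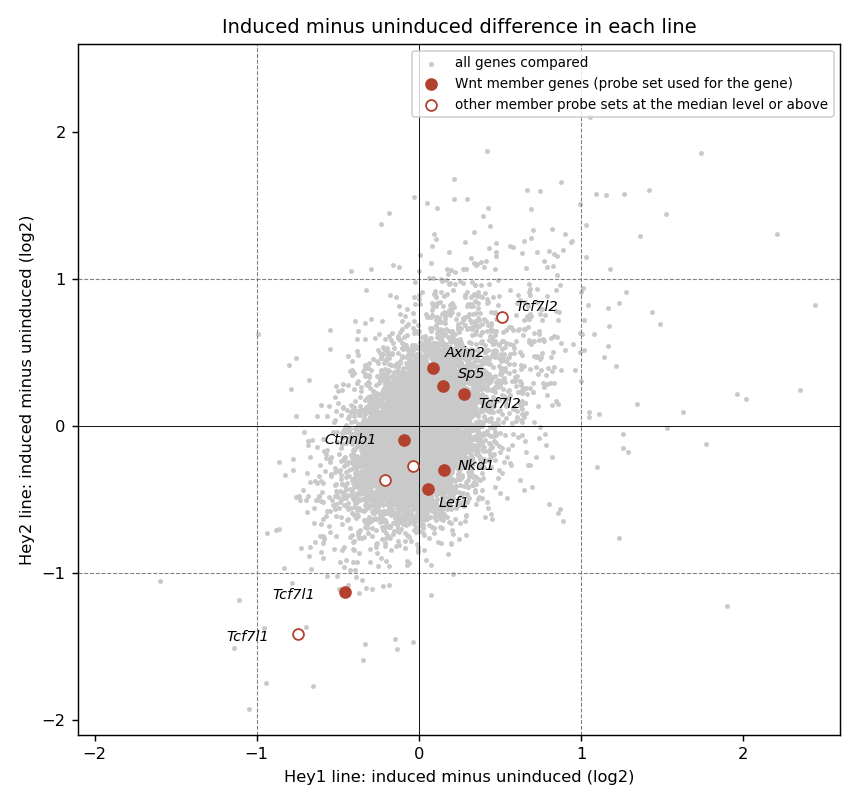
Induced minus uninduced difference (log2) in the Hey2 line against that in the Hey1 line for the 12098 genes compared (grey; 7 lie outside the axes), with the 7 compared members as filled circles and their other probe sets at the median level or above as open circles. Dashed lines mark 2-fold. Both Tcf7l1 probe sets lie at the lower left, at -0.46 and -1.13 and at -0.74 and -1.41, and the other members lie closer to the centre.

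The lines differed in these genes before induction. In the uninduced arrays, 18 of the 22 member probe sets were higher in the Hey2 line than in the Hey1 line, and the median difference over the 22 was 0.26. In the induced arrays 12 of the 22 were higher in the Hey2 line, and the median difference was 0.05. Of the 11 at the median level or above, 9 were higher in the Hey2 line in the uninduced arrays and 9 in the induced arrays, with medians of 0.22 and 0.09. Among all probe sets at that level 51.7% were higher in the uninduced and 47.5% in the induced Hey2 array. The smaller count after induction was thus seen over the 22 and not over the 11. For the 22, no share over all probe sets of any level was computed. Past 2-fold in this comparison lay 1 of the 11 member probe sets at that level, Tcf7l1 1450117_at, where 0.749% of all probe sets were this much higher. No member was past 2-fold lower, where 1.13% of genes and 1.23% of probe sets were, and 0 of the 7 genes were past 2-fold higher, where 0.827% were. At 1.5-fold Tcf7l1 alone was higher, with 1 of 7 genes (4.5% of all genes) and 2 of 11 probe sets (4.12%), and 0 members were lower (4.42% of genes and 5.28% of probe sets). The 3 Ctnnb1 probe sets were higher in the uninduced Hey2 line by 0.14 to 0.30, and the 4 Nkd1 probe sets by 0.13 to 0.64.

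The 4 arrays allow a single fit across genes, which takes the induction of Hey1 and of Hey2 as repeats of a single treatment with the line as a block. It tests whether the mean difference over both lines departed from 0, measured against the disagreement between the lines and a variance shared across genes. In this limma fit 0 genes had an adjusted p under 0.05, higher or lower, so the background was 0%, while 835 genes were higher and 763 lower at an unadjusted p of 0.05. Tcf7l1 had a mean difference of -0.79 ± 0.19 and an adjusted p of 0.301 by limma. The value after ± is the moderated standard error of the fit, which draws on the variance of all genes. It is not the spread of the 2 lines alone, whose differences were -0.46 and -1.13. Its unadjusted p was 0.014, and 6.31% of genes were lower at an unadjusted p under 0.05. Tcf7l2 had a mean difference of 0.25 ± 0.08 and an adjusted p of 0.350 by limma. Its unadjusted p was 0.039, and 6.9% of genes were higher at an unadjusted p under 0.05. Adjusted limma p-values of the other 5 compared members ran from 0.404 for Sp5 and 0.429 for Axin2 to 0.830 for Nkd1. Since no label tells whether RNA was taken from separate cultures, the p-values reflect the spread among these 4 arrays alone. They do not show that the members were unchanged.

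The sequence just upstream of the annotated start was examined for the members, since the series is about the target genes of Hey factors and the pathway acts through TCF/LEF sites. RefSeq windows of the build GRCm38.p6 were found for 9 of the 10 listed genes, 15 windows in all, and the 250 bases before each start were searched on both strands. The motifs were the TCF/LEF core CTTTGAT (reverse complement ATCAAAG), the E-box CACGTG and its variant CACGCG (reverse complement CGCGTG), E-box forms described for Hey and Hes proteins. The 2 E-box forms differ at 1 base, so no stretch counts as both. Sp5 is shown because it was the 1 member with a TCF/LEF core in this window, at position -104 from the start, and Tcf7l1 because it differed most. Capitals mark the motif, and the Tcf7l1 window held none of the 3.
Sp5, chr2:70474673-70474922, plus strand: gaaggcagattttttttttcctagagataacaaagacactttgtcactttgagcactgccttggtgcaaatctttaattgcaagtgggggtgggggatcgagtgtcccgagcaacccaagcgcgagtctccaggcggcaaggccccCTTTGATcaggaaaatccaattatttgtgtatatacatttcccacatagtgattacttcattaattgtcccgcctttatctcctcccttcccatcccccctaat
Tcf7l1, chr6:72789046-72789295, minus strand: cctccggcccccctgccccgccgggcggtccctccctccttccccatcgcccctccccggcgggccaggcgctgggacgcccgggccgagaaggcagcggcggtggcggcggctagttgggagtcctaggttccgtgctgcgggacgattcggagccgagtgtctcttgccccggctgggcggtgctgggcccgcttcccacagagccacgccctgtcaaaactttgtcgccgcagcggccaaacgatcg
The TCF/LEF core was present in 3.21% of all 32851 windows, the E-box in 6.02% and the variant in 7.62%. The E-box was found in 1 window of Lef1 and the variant in the 2 windows of Ctnnb1, which overlap and hold the same site. The Tcf7l1 window was rich in G and C (73.6%), against 46.0% for that of Sp5. A match is a description of letters and no evidence of binding, and the absence of a match concerns these 250 bases alone.

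Other genes of the pathway were taken from lists by role. Of 131 listed genes apart from the members, 91 could be compared. Their median difference was -0.04 for Hey1 and -0.07 for Hey2, against -0.01 and -0.02 over all genes. In both induced arrays 37 of the 91 were lower (40.7%, against 35.5% of all genes) and 16 were higher (17.6%, against 28.1%). In the Hey2 line 7 of the 91 were at least 1.5-fold lower, where 2.46% of all genes were, and 1 was at least 1.5-fold higher, where 3.02% were. Past 2-fold lower for Hey2 were 2 of the 91, Notum and Id2, where 0.24% of all genes were. Neither was past 2-fold lower against the uninduced Hey1 array, with differences of -0.41 and -0.79. In the Hey1 line 1 was at least 1.5-fold lower and 2 were at least 1.5-fold higher, where 0.587% and 1.84% of all genes were. None passed the limma fit of the common response at an adjusted p of 0.05, and 9 were lower and 6 higher at an unadjusted p of 0.05, where 6.31% and 6.9% of all genes were.

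Among the Wnt ligand genes, 7 of 19 were compared, with medians of 0.05 for Hey1 and -0.44 for Hey2. Wnt7b, Wnt7a and Wnt6, which encode secreted ligands, differed little in the Hey1 line (0.06, -0.03 and 0.05) and were lower in the induced Hey2 array (-0.67, -0.66 and -0.55). Their other probe sets were below the median level and differed by -0.11 to -0.18 in the Hey2 line. In these ligand genes, too, the uninduced Hey2 array held the highest value of the 4, for example 8.16 for Wnt7b against 7.71 in the uninduced Hey1 line.

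The 3 genes of ligand secretion and inactivation were all compared and did not move together. Porcn encodes the acyltransferase that lipidates Wnt proteins, and it read 8.93 in induced against 8.53 in uninduced cells of the Hey1 line. It read 8.42 in induced against 7.69 in uninduced cells of the Hey2 line. Its differences were 0.40 and 0.73, with the uninduced Hey2 array the lowest. Against the uninduced Hey1 array the Hey2 difference of Porcn was -0.11, so its sign depended on the reference. Notum encodes the enzyme that removes this lipid and is a feedback target of the pathway. It read 6.06 in induced against 6.43 in uninduced cells of the Hey1 line. It read 6.02 in induced against 7.16 in uninduced cells of the Hey2 line. Its differences were -0.37 and -1.14, and the difference of the induced Hey2 array from the uninduced Hey1 array was -0.41. Wls, which carries Wnt proteins to the cell surface, differed by 0.85 for Hey1 and 0.17 for Hey2 at a probe set that was below the median level in the uninduced Hey1 array, and its other 3 probe sets differed by -0.06 to 0.12 in the Hey1 line.

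Secreted and membrane antagonists had medians of 0.01 and -0.03 over 9 compared genes. Sfrp1, which encodes a secreted protein that binds Wnt ligands, was lower in both induced arrays at all 5 of its probe sets. Its highest probe set read 9.60 in induced against 10.06 in uninduced cells of the Hey1 line. It read 9.40 in induced against 10.23 in uninduced cells of the Hey2 line. The differences were -0.46 and -0.83, and the other 4 probe sets differed by -0.29 to -0.55 and by -0.59 to -0.72. Shisa2, which encodes a protein that holds back Frizzled and FGF receptors in the cell, was lower by similar amounts in both lines, with differences of -0.65 and -0.56 and of -0.83 and -0.58 at its other probe set. Sfrp2, of the same family as Sfrp1, differed by 0.15 for Hey1 and -0.48 for Hey2. Before induction Sfrp2 was higher in the Hey2 line by 1.06, and against the uninduced Hey1 array its Hey2 difference was 0.58. Sfrp1 and Shisa2 had mean differences of -0.64 ± 0.12 and -0.60 ± 0.08 (moderated standard error of the fit), with adjusted p = 0.278 and 0.237 by limma.

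Receptors, cytoplasmic components and nuclear cofactors differed little. Medians were -0.08 and -0.04 for 14 receptors and coreceptors, -0.08 and 0.03 for 21 genes of Dishevelled and the destruction complex, and -0.03 and -0.06 for 17 nuclear cofactors. No gene of these 3 lists was past 1.5-fold in either line. Fzd10 (-0.19 and -0.53) and Fzd1 (0.12 and 0.54) encode Wnt receptors, and Tle4, the gene of a corepressor that binds TCF/LEF factors, differed by -0.33 and -0.30. The other probe sets of Tle4 differed by -0.46 and -0.47 in the Hey1 line and by -0.03 and 0.74 in the Hey2 line. Csnk1d (-0.31 and -0.28) and Csnk1e (0.18 and 0.44) encode casein kinases, and the other probe sets of Csnk1e disagreed for Hey2 (0.63 and -0.19). The other 4 probe sets of Csnk1d differed by less for Hey1, from -0.16 to 0.06, and by -0.27 to -0.07 for Hey2. Bcl9, a gene of a beta-catenin coactivator, differed by -0.06 and 0.48, and by -0.07 and 0.04 at its other probe set. Ctbp2, a corepressor gene, differed by 0.27 and -0.18. Of the R-spondin genes and their receptors, 4 of 8 were compared, with medians of 0.13 and 0.05. Rspo1 differed by 0.25 and 0.21, Rspo2 by 0.15 and -0.55, and the receptor gene Lgr4 by 0.11 and 0.11.

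Further described targets had medians of -0.07 for Hey1 and -0.22 for Hey2. Of the 16 compared, 9 were lower for Hey1 (53.1% of all genes were) and 13 for Hey2 (54.3%). Ccnd1, the gene of cyclin D1, read 10.62 in induced against 10.87 in uninduced cells of the Hey1 line. It read 9.54 in induced against 10.49 in uninduced cells of the Hey2 line. Its differences were -0.25 and -0.95, its other 2 probe sets had -0.21 to -0.23 and -0.89 to -0.95, and the induced Hey2 array was the lowest of the 4 at all 3. Id2, also a target of BMP signalling, differed by -0.35 and -1.59. Its other probe set above the median level had -0.65 and -1.56, and a dimmer one below it had -0.23 and -0.64. Vegfa, a gene that many other pathways also raise, differed by 0.59 and 0.34, and by 0.18 and 0.09 at its other probe set. Myc differed by -0.04 and -0.02. T and Mixl1, mesoderm genes that Wnt signalling induces on differentiation, were not compared.

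The last list holds genes described as repressed by Tcf7l1 in mouse embryonic stem cells. Of its 13 genes 11 were compared, including the members Lef1 and Axin2, and their medians were -0.13 for Hey1 and -0.08 for Hey2. In both induced arrays 5 were lower and 3 higher, that is 45.5% and 27.3%, against 35.5% and 28.1% of all genes. Largest were Lefty1 (-0.94 and -1.74) and Lefty2 (-1.14 and -1.51), whose products block Nodal, and Klf2 (-0.60 and -0.66), a pluripotency gene. Esrrb (-0.27 and -0.10) and Nanog (0.02 and 0.21) differed by less, as did Nr5a2 (-0.12 and -0.08). In the other direction for Hey2 stood Tbx3, with -0.39 and 0.72, and Klf4, with -0.13 and 0.61, the 2 of the 11 that were at least 1.5-fold higher there, and below that threshold Tfcp2l1, with 0.03 and 0.55. Against the uninduced Hey1 array the Hey2 differences were -0.36 for Tbx3, 0.32 for Klf4 and 0.53 for Tfcp2l1. At least 1.5-fold higher were 0 of the 11 for Hey1 and 2 for Hey2, where 1.84% and 3.02% of all genes were. At least 1.5-fold lower were 3 of the 11 in each line, where 0.587% of all genes were for Hey1 and 2.46% for Hey2. Past 2-fold lower were 1 of the 11 for Hey1 (0.0331% of all genes) and 2 for Hey2 (0.24%). The difference between the lines was not tested. Myc was chosen after its values were seen, as were the genes of the last list other than Lefty1, Lefty2 and Klf2.

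**Figure D4:**
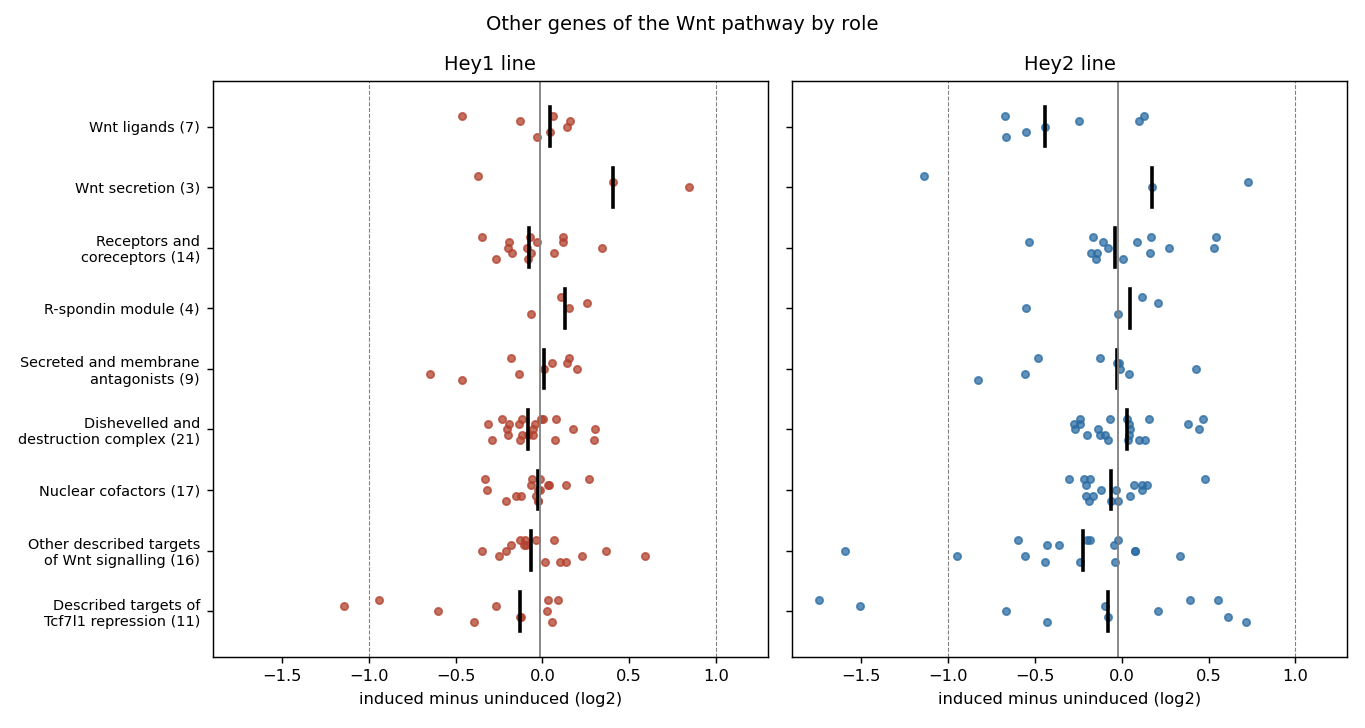
Induced minus uninduced difference (log2) of each compared gene in the lists of other Wnt genes, in the Hey1 line (left) and the Hey2 line (right), with the number of compared genes in brackets. Points are genes, black bars are list medians, the grey line is the median of all genes and dashed lines mark 2-fold. The ligands have a median of 0.05 for Hey1 and -0.44 for Hey2, ligand secretion has 0.40 and 0.17, and the medians of the other lists lie between -0.13 and 0.13 for Hey1 and between -0.22 and 0.05 for Hey2.

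Markers of other cell types were examined beside Tcf7l1, since stem cell cultures can hold differentiating cells. Of 6 neuroectoderm markers 4 were compared, and the log2 levels of all 6 summed to 37.2 in induced and 38.0 in uninduced cells of the Hey1 line, and to 35.1 in induced and 36.7 in uninduced cells of the Hey2 line. Sox1 differed by -0.78 and -1.07 and Pax6 by -0.06 and -0.13, while Nes (0.17 and -0.45) and Otx2 (0.03 and -0.19) were lower for Hey2 alone. Of 6 endoderm markers 2 were compared, Sox7 (0.48 and 1.18) and Sox17 (-0.02 and -0.22), and the levels of the 6 summed to 33.8 in induced and 33.6 in uninduced cells of the Hey1 line, and to 34.1 in induced and 33.7 in uninduced cells of the Hey2 line. Of 6 trophoblast markers 2 were compared, Tfap2c (0.60 and 0.27) and Hand1 (0.21 and -0.74), and the levels of the 6 summed to 37.3 in induced and 36.1 in uninduced cells of the Hey1 line, and to 36.3 in induced and 36.5 in uninduced cells of the Hey2 line. Of 7 mesoderm markers 6 had a probe set, and their levels summed to 33.5 in induced and 33.3 in uninduced cells of the Hey1 line. In the Hey2 line the sums were 33.9 in induced and 34.7 in uninduced cells. Of the 3 compared mesoderm markers, Eomes had -0.10 and -0.18, Kdr -0.08 and -0.55 and Mesp1 0.09 and 0.02. These are all the compared markers of the 4 lists, and the part of such cells in the results for Tcf7l1 was not tested.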

How the data were processed

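The authors deposited log2 values per probe set made with RMA, per the submitters' processing notes. RMA subtracts background, equalises the distributions of the arrays and combines the probes of a set. Its version and a genome build were not given in the sources used here. That they are log2 follows from the deposited values, which ran from 2.67 to 15.2. After sorting, the arrays differed by at most 0.0024, so a shift shared by all genes would be invisible. Scanner files were not used here.

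Arrays were grouped by their titles. The annotation of the 45101 probe sets named 1 gene for 34958, several for 932 and none for 9211, and only those with 1 gene were used. A gene took the probe set with the highest mean and was compared if its highest value reached 6.05, which left 12098 of 18194 genes. Differences within and between lines were subtracted log2 values. limma 3.58.1 in R 4.3.3 (lmFit, eBayes, line as a block, Benjamini-Hochberg over all genes compared) fitted the common response with 1 residual degree of freedom, after a test on simulated data. Python 3.11.15 with pandas 2.3.3 and matplotlib 3.10.9 did the rest.

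The members, the gene lists and the alternatives were chosen with earlier results of these data known. Named are all members, from each list up to 3 genes with the largest mean absolute difference, and those past 2-fold; others are said to be chosen later. The promoter motifs were also chosen later. Alternatives changed the level filter, the probe set rule, the normalization, an offset, the reference array, the fold threshold, the prior variance and the block.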

Additional observations from a re-analysis of the deposited data

Results flagged for a closer look

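Among genes named from the lists for the size of their difference, 2 moved in opposite directions beyond the scaled spread of each line. This spread was 0.16 for Hey1 and 0.22 for Hey2. Tbx3 (-0.39 and 0.72), Hand1 (0.21 and -0.74) and Nes (0.17 and -0.45), named on other grounds, did so too. Ror2, a receptor gene, differed by -0.20 for Hey1 and 0.53 for Hey2, so the Hey2 response exceeded the Hey1 response by 0.73, and its other probe set, below the median level, had -0.23 and 0.26. Dact2, a gene of a Dishevelled-binding protein, differed by -0.23 and 0.47, a gap of 0.70, but its other probe sets were lower in both lines, by -0.08 and -0.62 in the Hey1 line and by -0.46 and -0.44 in the Hey2 line. With the other line's uninduced array as reference, Ror2 differed by 0.23 for Hey1 and 0.10 for Hey2, and Dact2 by 0.04 and 0.20. Tbx3 then had 0.68 and -0.36, Hand1 -0.25 and -0.27 and Nes -0.12 and -0.16. The opposite directions given above thus depended on the reference array. With 1 array a group, these differences between the lines were not tested.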

How the results depend on the processing

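The lower value of Tcf7l1 kept its direction under every alternative run, from -0.44 to -1.22 for Hey1 and from -0.37 to -1.41 for Hey2, its other probe set included (this alternative, and centring in the limma fit, were chosen after seeing the data). No member passed an adjusted p of 0.05 in any limma fit; the lowest was 0.135, for Tcf7l1. Member differences moved by more than the scaled spread of all genes in 7 of 42 cases for Hey1 and 7 of 42 for Hey2. Between the uninduced arrays they did in 1 of 34. Most of these cases used the other line's uninduced array. Signs turned for Axin2 with the mean of its probe sets (-0.07 for Hey1 and 0.04 between the uninduced arrays). With the other line's uninduced array they turned for Lef1 (-0.17), Tcf7l2 (-0.02) and Nkd1 (-0.34) in the Hey1 line and for Nkd1 (0.20) and Ctnnb1 (0.04) in the Hey2 line.

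Counts over all genes depended on the settings. At 2-fold, 53 genes were higher and 4 lower for Hey1, 83 and 29 for Hey2, and 100 and 137 in the uninduced Hey2 against the uninduced Hey1 line. At 1.5-fold the counts were 222 and 71, 365 and 298, and 544 and 535. With the other line's uninduced array they were 252 and 135 for Hey1 and 135 and 94 for Hey2. A filter at the 75th percentile, which leaves fewer genes, gave 21 higher for Hey1, 28 and 18 for Hey2 and 63 and 61 between uninduced arrays. With an offset of 32 they were 30 higher for Hey1, 35 and 17 for Hey2 and 61 and 78 between uninduced arrays. With the mean of probe sets 55 were higher in the Hey2 line and 63 between uninduced arrays. The limma fit called 0 genes, but 241 higher and 192 lower under a robust prior with a trend in the level, and 3 and 1 with the stricter filter. The causes were not tested. The limma fit pairs the arrays by line. Without the line as a block it also called 0 genes, and Tcf7l1 had an adjusted p of 1.00 by limma. No array could be left out, since each group has 1. Probe sets below the median level limit what can be said of Dkk1, Lgr5 and Lef1.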
